A study of Mus musculus with 12 samples.

Results

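Chemokine receptors are membrane proteins through which leukocytes sense chemokines, the secreted proteins that guide their migration. The transcripts of 7 of them, Cx3cr1, Ccr1, Ccr2, Ccr3, Ccr7, Ccrl2 and Cxcr4, were followed in mouse macrophages and osteoclasts with and without lipopolysaccharide (LPS, a component of the outer membrane of Gram-negative bacteria). The 7 genes were matched by symbol among the 54532 Ensembl genes of the expression table, and each symbol matched 1 gene. RNA was sequenced in 12 libraries, 3 in each of 4 groups. All groups were bone marrow cells of wild-type (WT) mice, grown with CMG as the source of the macrophage growth factor M-CSF. Untreated macrophages (MA_NT) received no RANKL, the cytokine that turns such cells into bone-resorbing osteoclasts, and LPS-treated macrophages (MA_LPS) received LPS at 100 ng/mL for 3 h on day 5. Untreated osteoclasts (OC_NT) had been differentiated with RANKL, which the sample source gives as 100 ng/mL and the protocol as a range, and LPS-treated osteoclasts (OC_LPS) received the same LPS treatment. Strain, age and sex, and whether the 3 libraries of a group came from separate mice or cultures, are not given in the sources used here, so p-values measure the spread between these libraries, which may be technical.

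Most of these receptors signal through heterotrimeric G proteins of the Gi class. G protein-coupled receptor kinases (GRKs) and arrestins then desensitise them, and regulators of G protein signalling (RGS proteins) shorten the signal. Cx3cr1 binds fractalkine (Cx3cl1) and marks resident macrophages and some monocytes. Ccr2, the receptor for Ccl2, Ccl7 and Ccl12, directs monocytes out of the bone marrow, and Cxcr4, the receptor for Cxcl12, holds cells in it. Ccr1 binds Ccl3, Ccl5, Ccl7 and Ccl9 among others, and Ccr3 is best known as the eotaxin receptor of eosinophils. Ccr7 guides mature dendritic cells to lymph nodes. Ccrl2 is an atypical member that binds chemerin without the usual signalling.

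The promoter sequences of the receptors with the most contrasting patterns are shown so that the levels can be read beside them: Ccrl2 and Ccr3, which rose with LPS in macrophages, Cxcr4, which fell, and Ccr1, the main receptor transcript of osteoclasts. Each is the 250 bases before a RefSeq transcription start (GRCm38.p6), 5′ to 3′ on the strand of the gene. The Ccrl2 window is chr9:111057519-111057768, that of Ccr3 is chr9:124021721-124021970, that of Cxcr4 is chr1:128592300-128592549 and that of Ccr1 is chr9:123968693-123968942. Ccr3 lies on the plus strand and the other three on the minus strand. Capitals mark matches, on either strand, to the NF-kB pattern GGGNNNNNCC and the AP-1 pattern TGANTCA. The interferon-response pattern GAAANNGAAA was searched too and had no match in these windows.
Ccrl2: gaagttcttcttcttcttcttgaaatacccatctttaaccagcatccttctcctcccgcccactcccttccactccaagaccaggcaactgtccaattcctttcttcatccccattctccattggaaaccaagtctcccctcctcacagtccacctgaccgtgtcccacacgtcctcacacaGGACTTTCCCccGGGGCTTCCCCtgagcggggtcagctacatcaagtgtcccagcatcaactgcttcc
Ccr3: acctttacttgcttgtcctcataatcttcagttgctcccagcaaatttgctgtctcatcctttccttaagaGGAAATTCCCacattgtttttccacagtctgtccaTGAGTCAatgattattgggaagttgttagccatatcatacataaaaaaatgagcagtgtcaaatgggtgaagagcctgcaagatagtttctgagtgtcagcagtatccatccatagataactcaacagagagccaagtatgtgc
Cxcr4: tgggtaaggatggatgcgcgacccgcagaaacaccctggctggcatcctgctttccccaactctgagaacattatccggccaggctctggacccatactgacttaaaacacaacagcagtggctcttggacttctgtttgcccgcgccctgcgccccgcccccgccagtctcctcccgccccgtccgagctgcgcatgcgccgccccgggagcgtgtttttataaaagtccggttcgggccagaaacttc
Ccr1: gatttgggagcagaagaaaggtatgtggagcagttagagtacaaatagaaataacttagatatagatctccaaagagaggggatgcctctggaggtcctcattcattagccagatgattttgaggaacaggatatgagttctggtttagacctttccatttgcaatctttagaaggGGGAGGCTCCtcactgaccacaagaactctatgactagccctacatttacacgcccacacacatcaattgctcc
The Ccrl2 window held 2 separate stretches matching the NF-kB pattern, at 68 to 59 and at 56 to 46 bases before the start, the latter made of overlapping matches. RefSeq has 3 starts for Ccrl2, and the windows of the other two, which lie inside the gene, held none. The Ccr3 window held 1 NF-kB match, at 179 to 170 bases, and 1 AP-1 match, at 144 to 138 bases. The Ccr1 window held 1 NF-kB match, at 74 to 65 bases, and the Cxcr4 window held no match to any of the 3 patterns. The Cx3cr1 window, not shown, held 1 NF-kB match, and that of Ccr2 held none. Of all 32851 windows of this length, 45.8% held an NF-kB match, 6.75% an AP-1 match and 2.98% an interferon-response match, so the NF-kB pattern is common. A match is a run of letters and not a measured binding site.

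The libraries held 15651770 to 20281456 reads assigned to genes. The authors' FPKM values are read counts per kilobase of a gene's exons, divided by a library denominator that sets them relative to the typical gene, and libraries of a group differed by more than sampling noise (chi-square per degree of freedom 2.62 to 12.6, highest for OC_LPS replicates 1 and 2). The cell type labels matched their markers: 7 osteoclast markers, among them Ctsk and Calcr, summed to 29414 to 30851 FPKM in OC_NT and to 8.21 to 12.2 FPKM in MA_NT, with Calcr at 0 reads there. Macrophage markers summed to 1327 to 1342 FPKM in MA_NT and 361 to 368 FPKM in OC_NT, where the M-CSF receptor Csf1r made up 310 ± 6.85 FPKM (SD, n = 3). Stromal cell markers (Col1a1, Col1a2 and 4 others) moved with cell type as well, at 27.3 to 37.9 FPKM in MA_NT and 0.624 to 0.752 FPKM in OC_NT, as did the mitochondrial share of reads, 1.5 to 1.62% against 5.37 to 5.9%. Their part in the cell type differences below was not tested.

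The leading receptor differed between untreated macrophages, LPS-treated macrophages and osteoclasts. In MA_NT, Cx3cr1 made up 72.6% ± 1 (SD, n = 3) of the summed FPKM of the 7 receptors and Cxcr4 16.2% ± 0.798. In MA_LPS, Ccrl2 made up 74.8% ± 1.63 and Cx3cr1 14.2% ± 1.43. In both osteoclast groups Ccr1 was the leading receptor, with 92% ± 0.442 of the sum in OC_NT and 90.7% ± 1.43 in OC_LPS, and Ccr3 came next with 6.33% ± 0.369 and 5.41% ± 0.469. The sum itself was 196 ± 3.07 FPKM in MA_NT, 266 ± 5.88 in MA_LPS, 280 ± 6.57 in OC_NT and 338 ± 9.25 in OC_LPS. Since FPKM is per length, the receptors can be compared within a library. In these bulk samples, fewer cells of a type and less RNA per cell cannot be told apart.

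**Figure D1:**
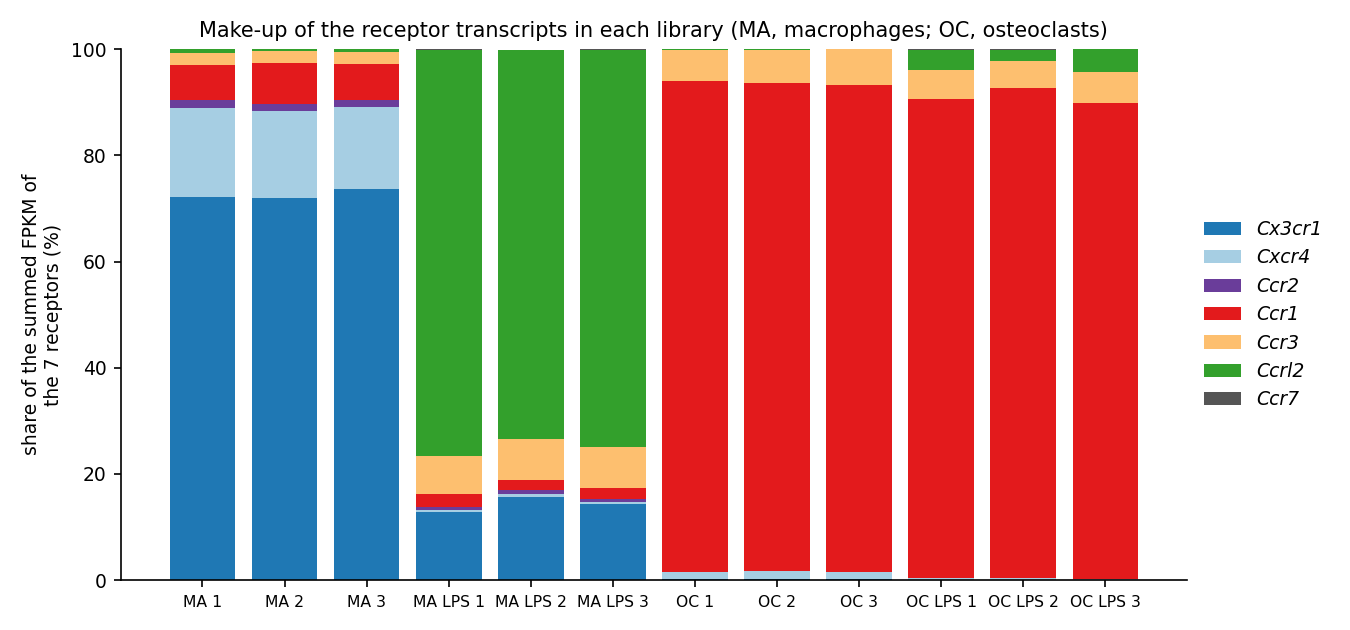
Share of each receptor in the summed FPKM of the 7 receptors (vertical axis, %) in each of the 12 libraries (horizontal axis; MA, macrophages; OC, osteoclasts; numbers are replicates). Cx3cr1 fills most of the untreated macrophage bars, Ccrl2 most of the LPS-treated macrophage bars and Ccr1 most of every osteoclast bar.

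LPS changed all 6 of the receptors that could be tested in macrophages: Ccrl2 and Ccr3 rose, and Cx3cr1, Cxcr4, Ccr1 and Ccr2 fell. The test was limma on log2(FPKM + 1) over the 11335 genes that reached 1 FPKM in 3 or more libraries, and a gene was called at a Benjamini-Hochberg adjusted p under 0.05. This scale understates the change of low genes. Ccr7 did not pass the filter. Of all genes tested, 36.8% were called higher and 33.1% lower with LPS in macrophages, so a call in this comparison is common. In osteoclasts LPS changed 2 of the 6: Ccrl2 rose and Cxcr4 fell, where 11.1% of all genes tested were called higher and 6.59% lower.

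**Figure D2:**
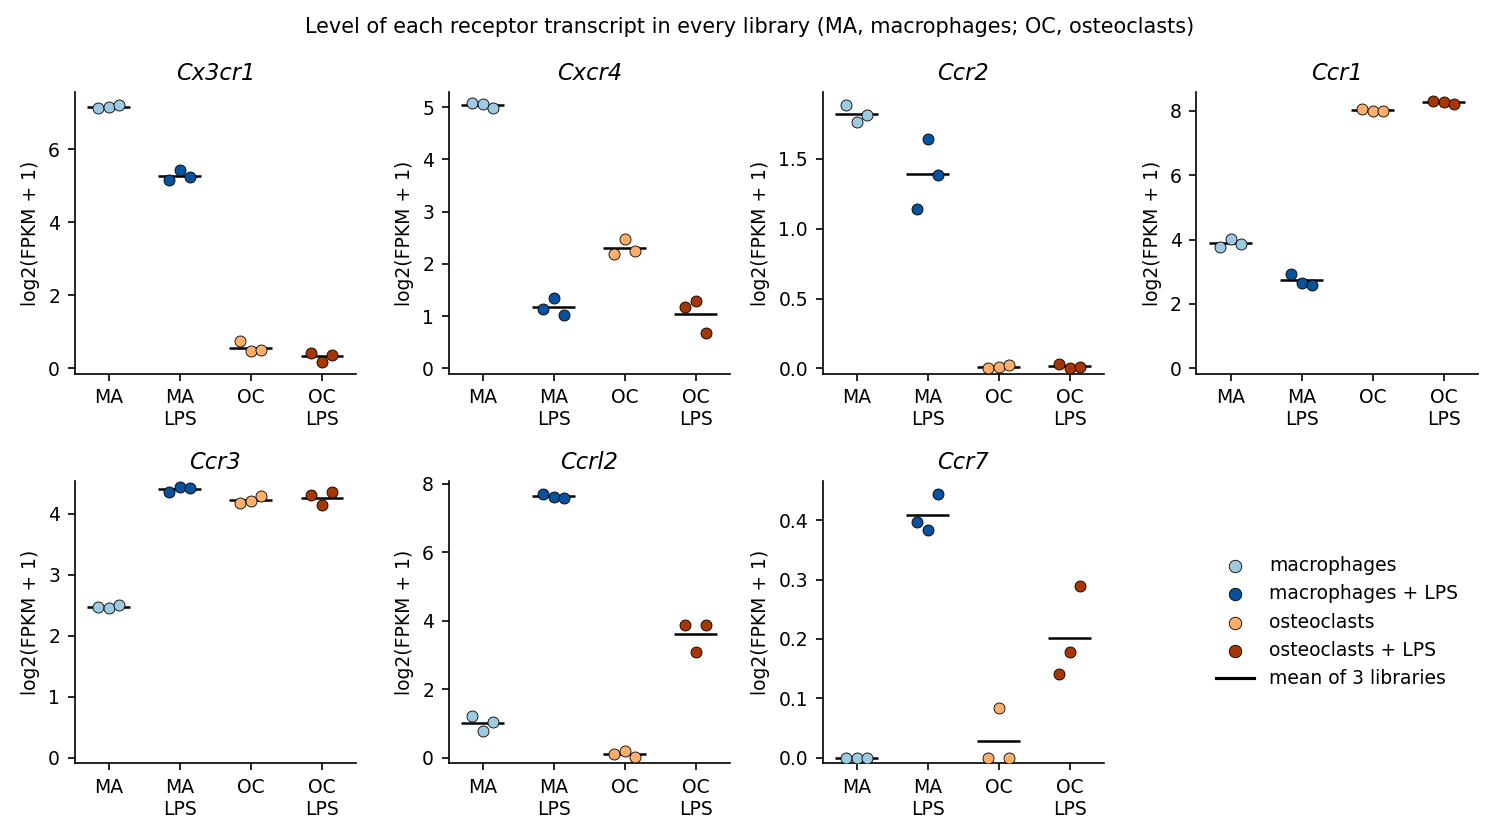
Level of each receptor, as log2(FPKM + 1) (vertical axes, which differ between panels), in each of the 3 libraries of the 4 groups; points are libraries and bars are group means. Ccrl2 is high in LPS-treated macrophages, Ccr1 in osteoclasts and Cx3cr1 and Cxcr4 in untreated macrophages, while Ccr7 stays low in every library.

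Cx3cr1 (ENSMUSG00000052336, chr9:119901616-120069879) was the leading receptor transcript of untreated macrophages and was under 1 FPKM in osteoclasts. It was listed at 139, 141 and 147 FPKM in MA_NT, above 98% of the genes tested. In MA_LPS it was at 34.3, 42 and 37 FPKM, so that the treated libraries all lay below the untreated ones. The LPS difference in macrophages was -1.89 (log2, SE 0.09, limma adjusted p = 2.47e-09), and the mean was 3.77-fold lower. In OC_NT it was at 0.674, 0.381 and 0.405 FPKM and in OC_LPS at 0.348, 0.13 and 0.292 FPKM, which are 116 and 64 reads over the 3 libraries. The osteoclast libraries did not overlap either, but the LPS difference of -0.24 was not called (adjusted p = 0.0977), except with a pseudocount of 0.1 (adjusted p = 0.0472) or rescaled to TPM (adjusted p = 0.0335). With LPS present the level in osteoclasts was 147-fold lower than in macrophages (log2 difference -4.95, SE 0.09, adjusted p = 3.11e-13), and without LPS 292-fold lower. The gene shares 78 exon bases with Gm33858 on the opposite strand, and whether reads were counted by strand is not given in the sources used here.

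Cxcr4 (ENSMUSG00000045382, chr1:128588199-128592293) fell with LPS in both cell types, to means of 1.26 FPKM in macrophages and 1.1 FPKM in osteoclasts. Its levels were 32.6, 32.2 and 30.5 FPKM in MA_NT and 1.21, 1.56 and 1.02 FPKM in MA_LPS. The difference of -3.86 (log2, SE 0.14, adjusted p = 1.65e-10) was the deepest fall with LPS among the 6 tested receptors, and the mean was 25.1-fold lower. In osteoclasts it was lower from the start, at 3.57, 4.55 and 3.77 FPKM without LPS, an 8.02-fold lower mean than in MA_NT (log2 difference -2.73, SE 0.14, adjusted p = 2.70e-09). LPS brought the osteoclast libraries to 1.26, 1.44 and 0.606 FPKM, a difference of -1.26 (SE 0.14, adjusted p = 5.48e-05) and a 3.61-fold lower mean. The LPS-treated macrophage and osteoclast libraries overlapped, and their difference of -0.13 (SE 0.14) was not called (adjusted p = 0.419). The values after LPS rest on 96 reads in MA_LPS and 105 in OC_LPS, whose scaled ratio had a 95% exact counting interval of 0.641 to 1.14 around 0.854. Such intervals cover counting error only.

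Ccr2 (ENSMUSG00000049103, chr9:124101950-124113557) was a low transcript of macrophages and nearly without reads in osteoclasts. It was at 2.69, 2.4 and 2.52 FPKM in MA_NT and at 1.21, 2.12 and 1.61 FPKM in MA_LPS. The MA_LPS libraries were more spread but all lay below the untreated ones, with a difference of -0.43 (log2, SE 0.10, adjusted p = 0.00286) and a 1.54-fold lower mean. In osteoclasts it was at 0, 0.00875 and 0.0174 FPKM without LPS and at 0.0224, 0 and 0.0081 FPKM with LPS, or 3 and 4 reads per group. The scaled read ratio of MA_NT to OC_NT was 299 with a 95% exact counting interval of 102 to 1451, and that of MA_LPS to OC_LPS was 151, with an interval of 58.5 to 556. The corresponding log2 differences of osteoclasts from macrophages were -1.81 (SE 0.10, adjusted p = 7.96e-09) and -1.37 (SE 0.10, adjusted p = 8.61e-08). An effect of LPS on Ccr2 in osteoclasts was not detectable at this depth, since the scaled read ratio of 1.31 had an interval of 0.221 to 8.91. Neutrophil markers summed to 5.41 to 7.66 FPKM in MA_NT, 6.75 to 16 FPKM in MA_LPS and at most 1.88 FPKM in any osteoclast library. Of the 7, 3 (S100a8, S100a9 and Ngp) were at a mean of 1 FPKM or more in macrophages, and Ly6g and Elane were at 0 reads in MA_NT. The part of neutrophils in the Cxcr4 and Ccr2 differences was not tested, and the lists held no set of monocyte markers.

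Ccr1 (ENSMUSG00000025804, chr9:123962124-123968692) was the receptor transcript of osteoclasts. It was listed at 266, 253 and 254 FPKM in OC_NT and at 314, 310 and 295 FPKM in OC_LPS, above 98.7% and 98.8% of the genes tested. Macrophages held 12.7, 15.2 and 13.5 FPKM without LPS and 6.69, 5.35 and 5.07 FPKM with LPS. The mean in osteoclasts was thus 18.7-fold higher without LPS (log2 difference 4.13, SE 0.08, adjusted p = 7.03e-13) and 53.7-fold higher with LPS (log2 difference 5.53, SE 0.08, adjusted p = 5.47e-14). LPS lowered Ccr1 in macrophages 2.42-fold (log2 difference -1.15, SE 0.08, adjusted p = 9.73e-08). In osteoclasts the LPS libraries all lay above the untreated ones, but the difference of 0.25 (SE 0.08) missed the threshold (adjusted p = 0.0589). It passed in 6 of 21 alternative analyses, among them voom on the recovered reads (difference 0.25, adjusted p = 6.24e-04), over a range of adjusted p from 6.24e-04 to 0.286.

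Ccr3 (ENSMUSG00000035448, chr9:124021972-124031689) was at 16.7 to 20.6 FPKM in every library except those of untreated macrophages. It was at 4.51, 4.48 and 4.65 FPKM in MA_NT and at 19.5, 20.6 and 20.4 FPKM in MA_LPS, a 4.43-fold higher mean (log2 difference 1.93, SE 0.05, adjusted p = 1.74e-11). In osteoclasts it was at 17.1, 17.5 and 18.5 FPKM without LPS and at 18.7, 16.7 and 19.4 FPKM with LPS. The osteoclast groups overlapped, and the LPS difference of 0.04 (SE 0.05) was not called (adjusted p = 0.677) and changed sign with the scaling (-0.03 in TPM, -0.04 after quantile normalization). Without LPS the osteoclast mean was 3.89-fold higher than that of macrophages (log2 difference 1.75, SE 0.05, adjusted p = 2.81e-11). With LPS it was 1.1-fold lower, a difference of -0.14 (SE 0.05, adjusted p = 0.0326) that became 0.01 in TPM and 0.09 after quantile normalization and was called in 14 of 21 alternatives, so no direction can be given. It was not called without MA_LPS replicate 2 (-0.12, adjusted p = 0.0909), MA_LPS replicate 3 (-0.13, adjusted p = 0.0785) or OC_LPS replicate 2 (-0.08, adjusted p = 0.143). Of the eosinophil, basophil and mast cell markers, Epx and Ms4a2 had 0 reads in every library. The 6 summed to 0.376 to 0.678 FPKM in MA_NT, 0.327 to 0.693 FPKM in MA_LPS, 0.731 to 1.76 FPKM in OC_NT and 1.67 to 1.96 FPKM in OC_LPS, where Prg2 held most of the sum.

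Ccrl2 (ENSMUSG00000043953, chr9:111054486-111057519) had the largest rise with LPS among the tested receptors in both cell types. It went from 1.33, 0.704 and 1.04 FPKM in MA_NT to 206, 197 and 193 FPKM in MA_LPS. The difference was 6.64 (log2, SE 0.18, adjusted p = 1.32e-11), and the scaled read ratio was 194 with a 95% exact counting interval of 168 to 226. In OC_NT it was near the lowest level that can be read, at 0.0834, 0.137 and 0.0226 FPKM, or 11 reads in all, and in OC_LPS it reached 13.6, 7.47 and 13.8 FPKM. The middle library, OC_LPS replicate 2, was the lowest of the treated osteoclasts and still far above every untreated one. Some macrophage markers moved with LPS and with this library too. In osteoclasts the sum of the 6 was 361 to 368 FPKM without LPS and 384 to 420 FPKM with LPS. Called higher were 3 of the 6: Adgre1 from 33.1 ± 3.33 to 62.2 ± 17 FPKM, Cd14 from 16.2 ± 0.392 to 45.3 ± 10.3 FPKM and Fcgr1 from 0.429 ± 0.083 to 1.5 ± 0.503 FPKM. Adgre1 was at 42.5 FPKM in OC_LPS replicate 2 against 73.1 and 70.9 FPKM in the other two, and none of the 6 was at 0 reads in osteoclasts. The part of these markers in the rise of Ccrl2 was not tested. The other 3 were not called in osteoclasts. Mrc1 was at 2.57 ± 0.209 and 2.79 ± 1.01 FPKM (adjusted p = 0.876). Csf1r was at 310 ± 6.85 and 293 ± 9.42 FPKM (adjusted p = 0.136), and Mertk at 1.79 ± 0.135 and 1.49 ± 0.383 FPKM (adjusted p = 0.307). The 3 called higher also rose with LPS in macrophages: Adgre1 from 428 to 670 FPKM, Cd14 from 109 to 779 FPKM and Fcgr1 from 45.1 to 161 FPKM. The rise of Adgre1 in macrophages was lost in TPM (adjusted p = 0.987). The LPS difference of Ccrl2 in osteoclasts was 3.50 (SE 0.18, adjusted p = 6.83e-08). Its scaled read ratio was 147 with an interval of 82.2 to 296, which overlaps that of macrophages. As levels, the cell types stayed apart. Without LPS the osteoclast mean was 12.6-fold lower (log2 difference -0.89, SE 0.18, adjusted p = 7.00e-04). With 11 reads in OC_NT, the counting interval of that read ratio was 6.89 to 25.7. With LPS the osteoclast mean was 17.1-fold lower (log2 difference -4.03, SE 0.18, adjusted p = 5.63e-10).

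Ccr7 (ENSMUSG00000037944, chr11:99144196-99155077) appeared with LPS at levels under 1 FPKM. It had 0 reads in each MA_NT library and was at 0.317, 0.305 and 0.36 FPKM in MA_LPS, or 27 reads over the group. Against a floor of 3 reads over the untreated group, it was at least 14.9-fold higher. In OC_NT 1 library held 0.0598 FPKM, which is 2 reads, and the others 0, while OC_LPS held 0.102, 0.131 and 0.222 FPKM, or 16 reads. The scaled read ratio in osteoclasts was 7.83, with a 95% exact counting interval of 1.84 to 70.2. LPS-treated macrophages and osteoclasts did not overlap, and the scaled ratio of macrophages to osteoclasts was 2.16, with an interval of 1.12 to 4.29. When the filter was dropped, limma gave LPS differences of 0.41 (adjusted p = 1.07e-05) in macrophages and 0.17 (adjusted p = 0.0259) in osteoclasts. The summed level of the 6 dendritic cell markers was also higher with LPS: it was 0.273 to 0.293 FPKM in MA_NT and 5.26 to 6.11 FPKM in MA_LPS, and 0.638 to 0.71 FPKM in OC_NT and 1.28 to 1.71 FPKM in OC_LPS. Xcr1 held most of the sum in MA_LPS, at 5.31 ± 0.33 FPKM. Zbtb46 was at 0.0814 ± 0.0214 and 0.197 ± 0.0681 FPKM in macrophages without and with LPS, and at 0.546 ± 0.0129 and 1.01 ± 0.18 FPKM in osteoclasts. Flt3 was at 0.00585 ± 0.0101 FPKM in OC_NT and 0.0617 ± 0.0501 FPKM in OC_LPS, and at 0 reads in MA_LPS, while Cd209a was at 0 reads in MA_NT, OC_NT and OC_LPS. Clec9a and Siglech were each at a mean of at most 0.0344 FPKM in every group. The part of these markers in the Ccr7 values was not tested.

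Osteoclasts differed from macrophages in all 6 tested receptors without LPS, with Ccr1 and Ccr3 higher and Cx3cr1, Cxcr4, Ccr2 and Ccrl2 lower. Of all genes tested, 38.8% were called higher and 39.0% lower in this comparison. With LPS 1 receptor was called higher, Ccr1, and 4 were called lower, Cx3cr1, Ccrl2, Ccr2 and Ccr3, where 40.9% of all genes tested were called higher and 43.0% lower. Cxcr4 was the receptor not called. Ccr3 is the call that did not hold with the scaling. Ordered by mean level, neighbouring groups overlapped only for Ccr2 and Ccr3 (OC_LPS and OC_NT), Ccr7 (OC_NT and MA_NT) and Cxcr4 (MA_LPS and OC_LPS), and each other receptor had 4 groups with no overlap between neighbours in the order.

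**Figure D3:**
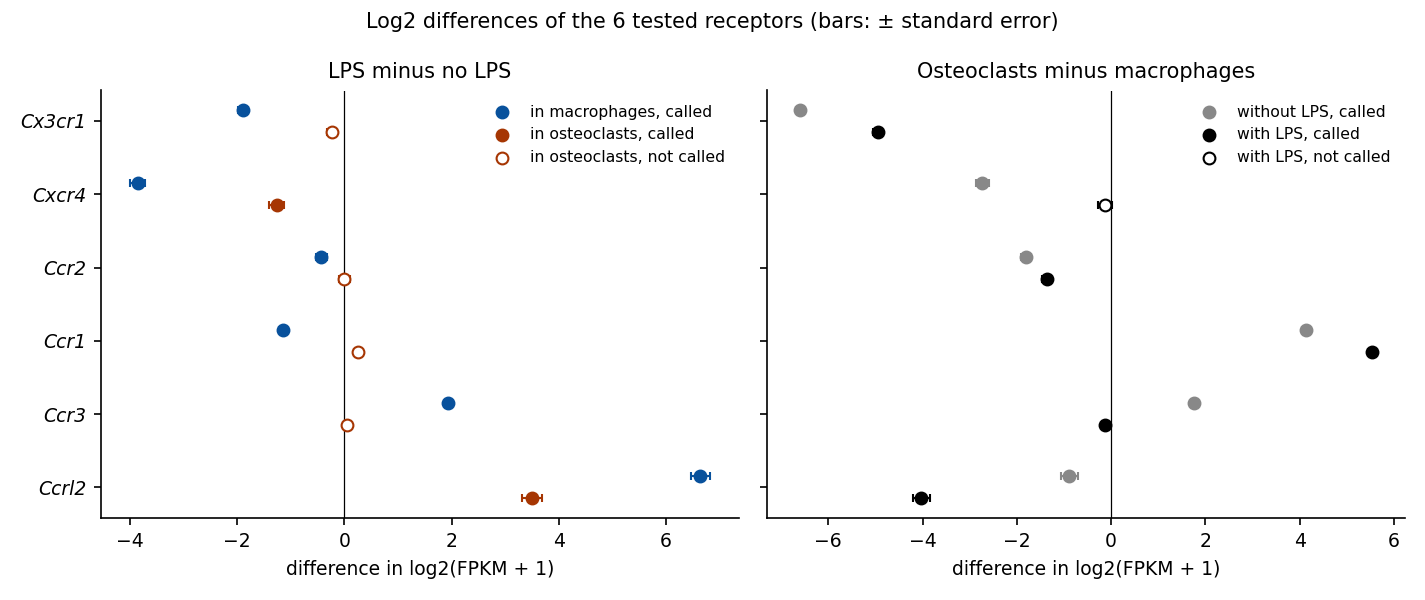
Differences in log2(FPKM + 1) (horizontal axes) of the 6 tested receptors, with LPS against without (left) and osteoclasts against macrophages (right); bars are ± 1 standard error, filled points were called at an adjusted p under 0.05 and open points were not. Ccrl2 has the largest rise with LPS in both cell types, and Ccr1 the largest positive difference of osteoclasts from macrophages.

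The interaction of LPS and cell type was called for the 6 tested receptors on the log2(FPKM + 1) scale, but a difference in LPS effect between the cell types can be stated only for Cxcr4, Ccr1 and Ccr3. For levels under 1 FPKM the pseudocount shrinks a difference relative to the ratio, and Cx3cr1, Ccr2 and Ccrl2 lay there in 1 or both osteoclast groups. Ccr2 passed the filter through macrophages alone, and with 3 and 4 reads in the osteoclast groups its osteoclast effect is held near 0 on this scale, so its interaction restates the macrophage effect of -0.43. The interval of its osteoclast read ratio, 0.221 to 8.91, holds the macrophage ratio of 0.649. Cx3cr1 also passed the filter through macrophages alone, and from 0.486 FPKM in OC_NT its value on this scale had little room to fall. Its read ratio in osteoclasts was 0.54, with a counting interval of 0.392 to 0.739, against a ratio of 0.266 in macrophages. Ccrl2 held 11 reads in OC_NT, and its read ratio with LPS was 147 (82.2 to 296) in osteoclasts and 194 (168 to 226) in macrophages, with intervals that overlap. The interaction, for which the macrophage effect is subtracted from the osteoclast effect, was above 0 for 4 and below 0 for 2, where 26.6% of all genes tested were called above 0 and 30.0% below. For the receptors that fell in macrophages it was 2.60 (SE 0.20, adjusted p = 3.72e-07) for Cxcr4, 1.65 (SE 0.13, adjusted p = 5.07e-07) for Cx3cr1, 1.40 (SE 0.12, adjusted p = 8.23e-07) for Ccr1 and 0.43 (SE 0.15, adjusted p = 0.0256) for Ccr2. It was -1.89 (SE 0.08, adjusted p = 1.76e-09) for Ccr3 and -3.13 (SE 0.26, adjusted p = 7.08e-07) for Ccrl2. With voom on the recovered reads the interaction was 2.71 (adjusted p = 1.72e-06) for Cxcr4, 1.54 (adjusted p = 1.02e-09) for Ccr1 and -2.10 (adjusted p = 7.92e-13) for Ccr3, but 0.98 (adjusted p = 0.0634) for Cx3cr1, 0.85 (adjusted p = 0.55) for Ccr2 and -0.44 (adjusted p = 0.742) for Ccrl2. The Ccr2 interaction was called in 14 of 19 alternatives. It was also lost without MA_NT replicate 1 (0.40, adjusted p = 0.0584), after quantile normalization (0.35, adjusted p = 0.0667), with a pseudocount of 0.1 (0.64, adjusted p = 0.102) and with no filter (0.43, adjusted p = 0.0631).

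Of the 7 receptors, 5 lie on chromosome 9, and Ccr1, Ccr3 and Ccr2 lie within 133.3 kb of each other in a cluster that also holds Xcr1 and Ccr1l1. Neighbours in the cluster had different patterns. Ccr1 was high in osteoclasts, Ccr3, which starts 53.3 kb further along, was at like levels in osteoclasts and LPS-treated macrophages, and Ccr2, at 133.3 kb, was a macrophage transcript. Reads of close relatives could be split, so stretches of 50 bases were compared between transcripts. Of those in Ccr2 transcripts, 1.91% also occur in transcripts of other genes, and of those in Ccr1 and Ccr3 transcripts 0%. Cx3cr1 lies 3898.8 kb and Ccrl2 12911.2 kb before Ccr1 on the same chromosome.

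**Figure D4:**
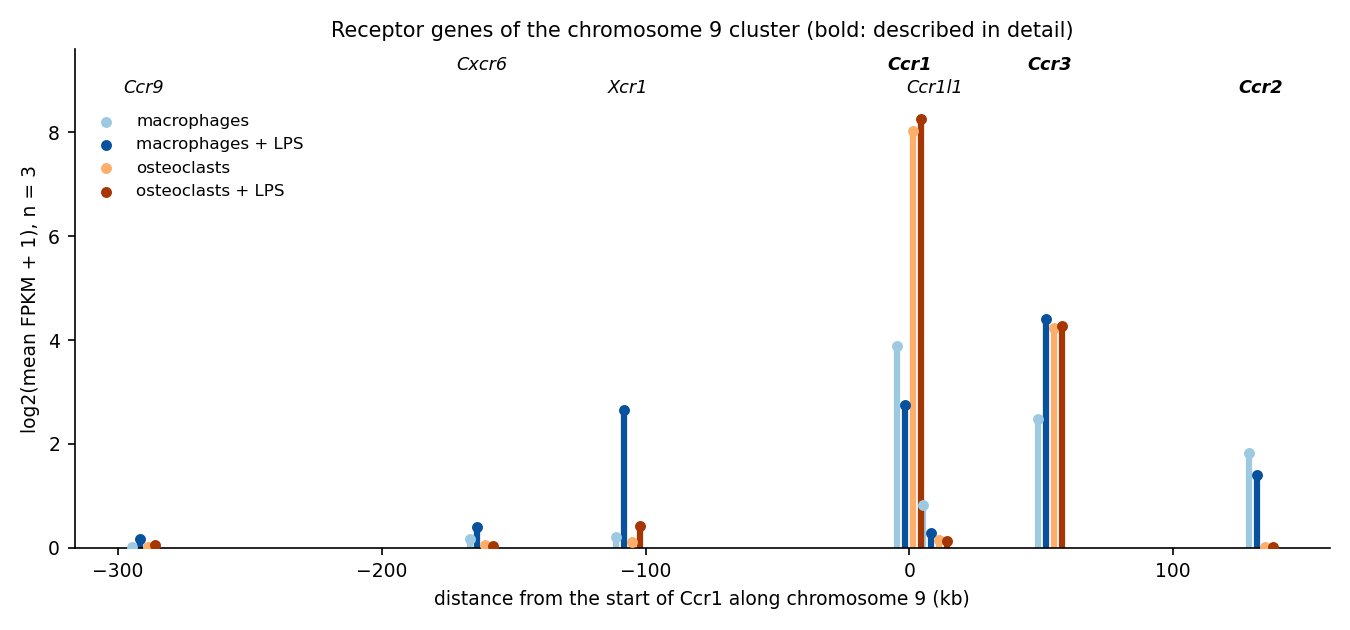
Mean level, as log2(mean FPKM + 1) over 3 libraries (vertical axis), of receptor genes of the chromosome 9 cluster by distance from the start of Ccr1 (horizontal axis, kb), in the 4 groups (colours). Ccr1 has its tallest lines in osteoclasts, Ccr2 has its tallest in macrophages, and Ccr3 is at like height in 3 of the groups.

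Of 18 other chemokine receptor genes, 16 did not pass the filter, and 2, Xcr1 and the chemerin receptor Cmklr1, were tested. Xcr1 was called higher with LPS in both cell types, and Cmklr1 in neither, where 36.8% of all genes were called higher in macrophages and 11.1% in osteoclasts. Xcr1 passed the filter through MA_LPS alone, so its rise in macrophages was favoured by the filter. Cmklr1 passed through macrophages alone. Xcr1, the receptor for Xcl1 known from cross-presenting dendritic cells, rose with LPS from 0.15 ± 0.0501 to 5.31 ± 0.33 FPKM in macrophages (log2 difference 2.45, SE 0.07, adjusted p = 1.97e-11). In osteoclasts it rose from 0.0784 ± 0.0489 to 0.338 ± 0.0494 FPKM (log2 difference 0.31, SE 0.07, adjusted p = 0.00956). Cmklr1, which binds the same ligand as Ccrl2, was at 15.9 ± 1.93 FPKM in MA_NT and 16.8 ± 1.38 in MA_LPS and was not called with LPS (0.07, SE 0.12, adjusted p = 0.61), though it was called lower in TPM (-0.56, adjusted p = 0.0065). In osteoclasts Cmklr1 was at 0.281 ± 0.0576 FPKM without and 0.463 ± 0.255 FPKM with LPS (log2 difference from macrophages without LPS -3.72, SE 0.12, adjusted p = 3.07e-11).

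Most of the tested ligands of these receptors rose with LPS in both cell types. Of 15 listed ligand genes 10 were tested, and 9 were called higher and 0 lower in macrophages, where 36.8% of all genes were called higher, with a median difference of 4.84 against 0.02 over all genes tested. The exception was Ccl6, at 51.8 ± 1.72 and 52 ± 2.99 FPKM, which was called lower in TPM and after quantile normalization (-0.64 in each). Ccl8 and Ccl24 reached 1 FPKM in MA_LPS alone, and Ccl5 in the LPS groups alone. Their rise in macrophages was thus favoured by the filter, and they count in the 9 and in the median. In osteoclasts 8 of the 10 were called higher and 0 lower, where 11.1% of all genes were called higher, with a median of 1.94 against 0.01. The 2 not called were Ccl6 and Ccl24, the latter with 0 reads in both osteoclast groups. Of the 6 macrophage markers, Adgre1, Cd14 and Fcgr1 were called higher in the same osteoclast libraries, and Csf1r, Mertk and Mrc1 were not called. The 3 called higher also rose with LPS in macrophages, with the values given above for Ccrl2. The part of these markers in the ligand differences was not tested. Ccl3 and Ccl5, ligands of Ccr1, reached 3568 ± 105 and 1677 ± 58.5 FPKM in MA_LPS, from 14.1 ± 1.83 and 0.153 ± 0.142 FPKM. In OC_LPS they reached 172 ± 51.1 and 87 ± 24.3 FPKM. Ccl2 and Ccl7, ligands of Ccr2, rose to 1826 ± 92.5 and 3002 ± 60.8 FPKM in MA_LPS while Ccr2 itself fell. In OC_LPS, where Ccr2 held 4 reads in all, Ccl2 was at 61.1 ± 16.2 and Ccl7 at 41.3 ± 14.3 FPKM. Cx3cl1 rose in macrophages from 1.27 ± 0.131 to 9.46 ± 1.12 FPKM (log2 difference 2.20, SE 0.10, adjusted p = 1.88e-09) as Cx3cr1 fell.

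Ccl9 was the 1 ligand called higher in osteoclasts without LPS, where 7 were called lower, beside 38.8% and 39.0% of all genes. It binds Ccr1, the leading osteoclast receptor, and was at 149 ± 2.69 FPKM in MA_NT, 838 ± 29.3 in MA_LPS, 412 ± 14 in OC_NT and 710 ± 45.7 in OC_LPS (SD, n = 3). The osteoclast difference of Ccl9 was 1.46 (SE 0.05, adjusted p = 5.76e-11) without LPS and -0.24 (SE 0.05, adjusted p = 6.78e-04) with LPS. The latter was not called in TPM (-0.08, adjusted p = 0.0838) and turned sign after quantile normalization (0.07, adjusted p = 0.128), so no direction can be given for Ccl9 with LPS. With LPS the 10 tested ligands were called lower in osteoclasts, where 43.0% of all genes were, and 9 of them in TPM and after quantile normalization. Ccl8 and Ccl24 passed the filter through MA_LPS alone, which favours a lower level in OC_LPS. The interaction of the 10 ligands was called below 0 for 9 and above 0 for 0, beside 30.0% and 26.6% of all genes. With voom it was called below 0 for 7 and above 0 for 1, Cx3cl1. These counts are no measure of a difference in LPS effect for 4 of the ligands. Ccl24 had 0 reads in both osteoclast groups and passed the filter through MA_LPS alone, so its interaction of -1.42 restates the macrophage effect of 1.42. Ccl8 had 0 and 22 reads in osteoclasts without and with LPS, and Cx3cl1 had 0 reads in OC_NT and turned sign with voom (4.24, adjusted p = 3.40e-04). Ccl12 was not called with voom (-0.46, adjusted p = 0.655). The ligands of Cxcr4 and Ccr7 did not pass the filter: Cxcl12 was at 0.402 ± 0.0678 FPKM in MA_NT with 0 reads in osteoclasts, and Ccl19 and Ccl21a had 0 reads in every library.

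**Figure D5:**
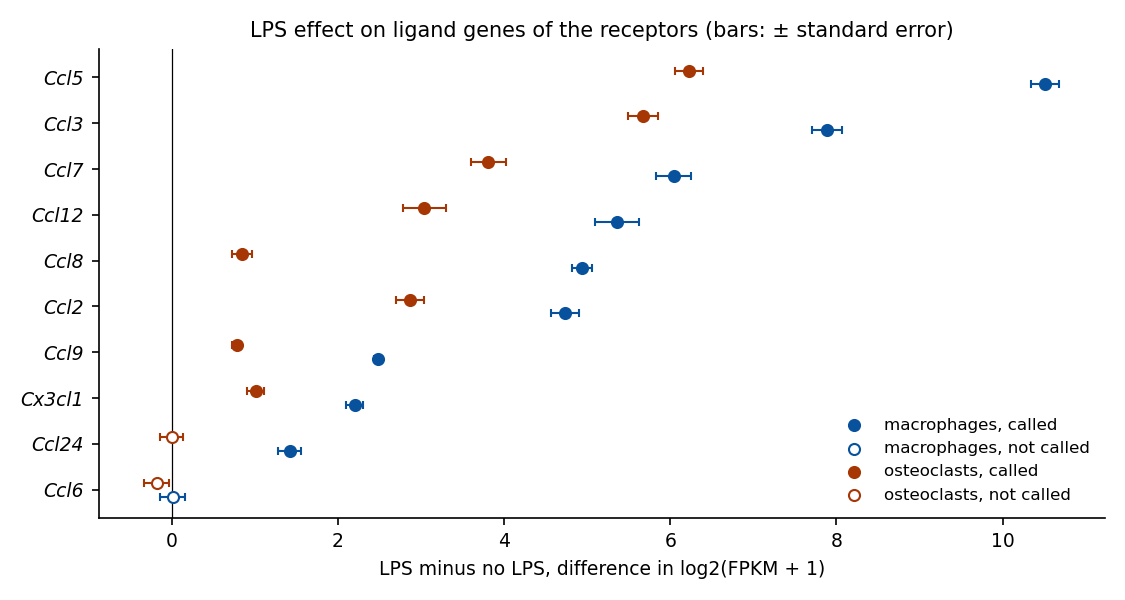
LPS effect on the 10 tested ligand genes, as the difference in log2(FPKM + 1) (horizontal axis) in macrophages (blue) and osteoclasts (brown); bars are ± 1 standard error, filled points were called and open points were not. In macrophages 9 were called and in osteoclasts 8, and Ccl5 and Ccl3 have the largest values in both.

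Of genes that carry or end the receptor signal, all 26 listed were tested. With LPS in macrophages 13 were called higher and 10 lower, beside 36.8% and 33.1% of all genes (median 0.26 against 0.02 over all genes tested), but in TPM 3 were called higher and 16 lower, so the direction of this list depends on the scaling. Those that kept their direction and their call under TPM, quantile normalization and voom included rises of Pik3r5, a regulatory subunit of PI3K gamma (49.7 ± 2.56 to 248 ± 2.5 FPKM), Rgs16 (1.29 ± 0.29 to 12.1 ± 1.29 FPKM) and the receptor kinase Grk3 (0.473 ± 0.0311 to 3.51 ± 0.104 FPKM). Rgs2, a GTPase activator that acts on G proteins, fell from 37.3 ± 2.12 to 3.87 ± 0.45 FPKM (log2 difference -2.98, SE 0.11, adjusted p = 1.65e-10), and beta-arrestin 1 (Arrb1) fell from 21.3 ± 0.46 to 10.3 ± 0.381 FPKM. In osteoclasts 3 were called higher with LPS (Pik3r5, Rgs1 and Rgs16) and 5 lower (Arrb1, Arrb2, Gng2, Pik3cg and Rgs2), beside 11.1% and 6.59% of all genes, with a median of 0.01. In macrophages the number called lower, and in osteoclasts the number called higher, is near the share over all genes.

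Without LPS osteoclasts had 5 of the 26 signalling genes higher and 17 lower than macrophages, beside 38.8% and 39.0% of all genes, with a median of -0.78 against 0.00 over all genes tested. The split depended on the scaling. In TPM Rgs19 turned from called higher (0.14, adjusted p = 0.0487) to called lower (-0.27, adjusted p = 0.00254). Gnb1, Gnb2, Rgs10 and Rgs14, not called on the main scale, were called lower in TPM. Grk3 was at 51.3 ± 2.57 FPKM in OC_NT against 0.473 ± 0.0311 in MA_NT (log2 difference 5.15, SE 0.06, adjusted p = 1.16e-14). Phospholipase C beta 2 (Plcb2) was at 25.5 ± 1.66 against 1.73 ± 0.0401 FPKM, and the GTPase Rac2 at 347 ± 5.01 against 62.5 ± 0.512 FPKM. Beta-arrestin 2 (Arrb2) was lower, at 11.8 ± 0.425 against 100 ± 2.82 FPKM, and so was Dock2, a guanine nucleotide exchange factor for Rac, at 2.72 ± 0.0686 against 26.2 ± 0.757 FPKM. With LPS 8 were called higher and 17 lower, beside 40.9% and 43.0% of all genes (median -0.97 against -0.02). The interaction was called above 0 for 7 and below 0 for 12, beside 26.6% and 30.0% of all genes. In TPM it was above 0 for 14 and below 0 for 2, where 82.0% of the calls over all genes were above 0, so the split of the whole table moved the same way.

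For each tested receptor, the genes most alike in pattern were taken as those with the highest Pearson r of log2(FPKM + 1) over the 12 libraries, among 10352 genes whose mean reached 1 FPKM. With 4 groups far apart such values are high for many genes and describe the group means. The leading genes were Gna12 (r = 0.9993), Dok2 and Eid1 for Cx3cr1, Mcrip2 (0.9990) and Angpt2 for Ccr1, and Rps6ka1 (0.9946), St3gal5 and Ptpa for Ccr2. For Ccr3 they were Prdm1 (0.9952), Stard7 and Slc31a1, for Ccrl2 Usp18 (0.9989), Gbp2 and Vcam1, and for Cxcr4 Cd300lb (0.9937), Lhfpl2 and Mvb12b. Prdm1, a transcriptional repressor, was at 2.11 ± 0.192 FPKM in MA_NT, 20.6 ± 1.42 in MA_LPS, 19.5 ± 0.152 in OC_NT and 20.1 ± 0.466 in OC_LPS, next to the levels of Ccr3 given above. Cd300lb, a myeloid activating receptor, went from 98.2 ± 6.03 FPKM in MA_NT to 3.47 ± 0.833 in MA_LPS and was at 8.86 ± 0.891 in OC_NT and 2.99 ± 0.0994 in OC_LPS.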

How the data were processed

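RNA sequencing libraries from macrophages and osteoclasts with and without LPS, 3 per group, were analysed. Per the submitters' processing notes, fastp, STAR, featureCounts and DESeq2 were used with build mm10; versions, annotation, use of strand and handling of multi-mapped reads are not given in the sources used here. The authors deposited FPKM values for 54532 genes. Each value is a whole multiple of a step per gene, which gave back whole reads (tolerance 0.02) for 25854 of 25854 genes above 0, with GENCODE M21 exon lengths for 96.8%. The denominators behind the deposited FPKM equal size factors times a common total, within 5.19e-05%, and so scale to the typical gene.

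Computed here were limma 3.58.1 fits (R 4.3.3; lmFit, contrasts.fit, eBayes with its trend option) of log2(FPKM + 1) in the 12 libraries together, for genes that reached 1 FPKM in 3 or more libraries. The 5 contrasts took the LPS effect within macrophages and within osteoclasts, the cell type difference without and with LPS, and the interaction. Tests were two-sided with Benjamini-Hochberg adjustment over all genes. Read ratios carry 95% exact counting intervals, scaled by the deposited denominators, and a floor of 3 reads over the group. As alternatives, the pseudocount was set to 0.1, the filter was dropped or replaced by a mean of 5 FPKM or more, values were rescaled to TPM or quantile normalized, and fits were run on the groups compared alone, with a replicate block, without a variance trend, with voom on the recovered reads, and with each library left out in turn. The fit was also run on simulated reads in which known changes were set in macrophages with LPS alone. That setting is simpler than these data, so it does not measure the accuracy of the calls above. Named were the 7 receptors, genes of the lists (other receptors, ligands, signalling genes, cell type markers), and the 3 genes most alike to each tested receptor. A receptor of the lists and a gene of most alike pattern are not reported here. The B and T cell markers summed to at most 0.134 FPKM in any library. The members and lists were chosen with earlier results of these data known. Positions are those of GENCODE M21 (GRCm38). RefSeq promoter entries matched 6 of the 7 receptors.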

Additional observations from a re-analysis of the deposited data

Results flagged for a closer look

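The interaction of LPS and cell type was called by limma on the log2(FPKM + 1) scale for the 6 tested receptors, and for 3 of them also with voom on the recovered reads. For these 3 the log2 differences were 2.60 for Cxcr4, which fell more in macrophages, 1.40 for Ccr1, which fell in macrophages and was not called in osteoclasts, and -1.89 for Ccr3, which rose in macrophages and was not called in osteoclasts. They were 1.65 for Cx3cr1, 0.43 for Ccr2 and -3.13 for Ccrl2. These receptors lay under 1 FPKM in 1 or both osteoclast groups, where the pseudocount shrinks differences, and no difference between the cell types can be stated for them. For Cx3cr1 the osteoclast read ratio of 0.54 had a counting interval of 0.392 to 0.739, which does not hold the macrophage ratio given above. Such an interval covers counting error only. The interaction of Cx3cr1 was called in 19 of 20 alternatives, but not with voom (0.98, adjusted p = 0.0634). That of Ccr2 restates its macrophage effect, since Ccr2 held 3 and 4 reads in the osteoclast groups. The interaction of Ccrl2 ran from -3.27 to -0.44 over the alternatives, and its read ratios with LPS were 147 (95% counting interval 82.2 to 296) in osteoclasts and 194 (168 to 226) in macrophages.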

How the results depend on the processing

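Over the alternatives, the values of single receptors kept their direction and their side of the threshold in 591 of 619 comparisons, lost the call in 12, gained it in 8 and changed sign in 8. The changes of sign were all in small differences: Ccr2 with LPS in osteoclasts (-0.01 without OC_LPS replicate 1, -0.004 without OC_NT replicate 1), Ccr3 with LPS in osteoclasts (-0.04 after quantile normalization, -0.03 in TPM, -0.005 without OC_LPS replicate 3), Ccr3 in osteoclasts against macrophages with LPS (0.09 after quantile normalization, 0.01 in TPM) and Cxcr4 in the same comparison (0.06 without OC_LPS replicate 3, within a range of -0.24 to 0.06 when each library was left out). The interaction was called for 3 receptors with voom in place of 6. Requiring a mean of at least 5 FPKM left 6430 genes, of which 4851 were called for LPS in macrophages (7921 otherwise), 5427 and 5694 for cell type without and with LPS (8822 and 9509) and 4018 for the interaction (6413).

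TPM moved the median LPS difference of all genes in macrophages from 0.02 to -0.55 and that of the interaction from -0.01 to 0.51, and the share of calls that were higher from 52.6% to 18.5% and from 47.0% to 82.0%. Quantile normalization gave 36.4% and 61.1%. For cell type without LPS, TPM moved the median from 0.00 to -0.38 and the share from 49.9% to 29.9%. In osteoclasts the share with LPS was 62.8%, 43.5% in TPM and 40.7% after quantile normalization. Under both scalings the 6 tested receptors kept their direction and their call for LPS in macrophages. With the replicate number as a block, 7914 genes were called for LPS in macrophages, 1930 for LPS in osteoclasts, 8787 and 9512 for cell type and 6422 for the interaction, and the receptors called were the same in number. Libraries with the same number did not deviate together more than others (r from -0.07 to 0.10 over 18 pairs, against -0.14 to 0.11 for other numbers). With 3 libraries a group this cannot exclude that equal numbers share a source. Under 30 reads in a group, as for Ccr7 and for Ccr2 in osteoclasts, only large differences can be seen.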
